A study of Mus musculus with 18 samples.

Results

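Islets of mice heterozygous for Slc30a8 were compared with and without inflammatory cytokines. Slc30a8 encodes zinc transporter 8 (ZnT8), which carries zinc into the insulin granules of beta cells. The comparison uses 6 of the 18 libraries of the series, chosen by the genotype and treatment in their labels: 3 of cytokine-treated heterozygous (Het) islets and 3 of untreated Het islets. It covers the 17590 of 55536 genes that passed a low-count filter. The other 12 libraries are wild type (WT, +/+) and knockout (KO, -/-) islets under the same treatments, 3 per group, and serve only as a background for the Het response.

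All mice were males of 17 weeks on the NOD.SCID strain NOD.CB17-Prkdcscid/NCrCrl, whose Prkdc mutation leaves every group, untreated ones included, without mature T and B lymphocytes. Isolated islets rested overnight in RPMI medium with serum. The cytokine-treated group then received TNF-α at 100 pg/ml, IL-1β at 150 pg/ml and IFN-γ at 10 pg/ml for 24 h, and the untreated group stayed in the same basal medium without cytokines for 24 h. RNA of whole islets was sequenced, so beta, alpha, delta and PP cells are measured together with acinar, duct, vascular, stromal and immune cells. In such bulk samples fewer cells of a type and less RNA per cell cannot be told apart. The protocol names 3 mice. Whether each library of a group stands for its own mouse, and whether cytokine-treated and untreated islets share mice, is not stated in the labels. The p-values therefore measure only the spread between these samples.

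TNF-α and IL-1β act through receptor adaptors and kinases that release NF-kB from its IkB inhibitors, whereas IFN-γ acts through JAK kinases, STAT proteins and the interferon regulatory factors. In rodent islets mixtures of these cytokines are the standard laboratory model of the inflammation that surrounds beta cells in type 1 diabetes. They are known for inducing nitric oxide synthase, chemokines and antigen presentation and for lowering genes of beta cell maturity.

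Several genes described below carry a binding motif of these pathways close to their start. The promoters of 6 of them are printed as examples of the signalling arms that the results compare: 3 chemokine genes and the NF-kB inhibitor gene Nfkbia for NF-kB, the guanylate-binding protein gene Gbp5 for interferon, and Chac1 for the ATF4 stress response. Sequences come from RefSeq on GRCm38.p6 and run 5′ to 3′ in the direction of the gene, from 250 bases before its start to 50 bases after it. Capitals mark the matched motif, on either strand: GGGA, any base and TTTCC (NF-kB) in the first 4, GAAA, any 2 bases and GAAA (interferon response) in Gbp5 and TGATGNAA (C/EBP-ATF) in Chac1.
Cxcl1 (chr5:90890995-90891294, plus strand): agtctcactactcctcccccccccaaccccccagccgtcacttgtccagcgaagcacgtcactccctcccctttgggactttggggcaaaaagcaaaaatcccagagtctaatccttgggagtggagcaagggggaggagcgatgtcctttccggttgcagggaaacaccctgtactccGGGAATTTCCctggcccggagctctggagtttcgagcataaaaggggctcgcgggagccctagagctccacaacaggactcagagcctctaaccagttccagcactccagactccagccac
Cxcl2 (chr5:90903649-90903948, plus strand): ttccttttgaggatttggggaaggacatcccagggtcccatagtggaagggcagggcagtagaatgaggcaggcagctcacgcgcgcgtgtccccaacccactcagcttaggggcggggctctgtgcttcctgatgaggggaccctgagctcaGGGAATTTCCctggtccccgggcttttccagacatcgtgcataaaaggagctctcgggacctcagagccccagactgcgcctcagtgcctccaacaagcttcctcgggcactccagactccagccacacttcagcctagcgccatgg
Cxcl3 (chr5:90785851-90786150, plus strand): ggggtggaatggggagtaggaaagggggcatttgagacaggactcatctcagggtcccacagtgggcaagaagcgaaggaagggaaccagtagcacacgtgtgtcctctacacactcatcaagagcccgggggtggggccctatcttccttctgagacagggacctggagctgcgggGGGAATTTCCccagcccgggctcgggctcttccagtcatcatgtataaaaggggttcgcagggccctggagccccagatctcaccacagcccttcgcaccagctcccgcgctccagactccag
Nfkbia (chr12:55492598-55492897, minus strand): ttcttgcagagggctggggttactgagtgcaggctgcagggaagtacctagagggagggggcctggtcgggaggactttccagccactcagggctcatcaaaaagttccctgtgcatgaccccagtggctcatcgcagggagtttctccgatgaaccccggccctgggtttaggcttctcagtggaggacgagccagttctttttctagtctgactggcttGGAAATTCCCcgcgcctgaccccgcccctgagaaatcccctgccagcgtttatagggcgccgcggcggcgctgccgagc
Gbp5 (chr3:142496684-142496983, plus strand): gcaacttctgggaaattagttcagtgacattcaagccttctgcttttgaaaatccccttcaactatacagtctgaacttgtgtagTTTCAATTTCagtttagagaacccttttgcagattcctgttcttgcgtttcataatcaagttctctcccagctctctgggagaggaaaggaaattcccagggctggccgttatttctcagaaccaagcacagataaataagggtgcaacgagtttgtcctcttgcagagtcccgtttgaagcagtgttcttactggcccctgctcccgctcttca
Chac1 (chr2:119350992-119351291, plus strand): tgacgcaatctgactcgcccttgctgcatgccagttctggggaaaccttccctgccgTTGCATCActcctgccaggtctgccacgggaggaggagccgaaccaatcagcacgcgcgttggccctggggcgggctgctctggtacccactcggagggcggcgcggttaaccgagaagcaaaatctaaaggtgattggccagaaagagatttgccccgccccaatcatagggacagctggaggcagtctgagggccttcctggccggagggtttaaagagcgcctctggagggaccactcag
Each window holds 1 match of the motif in capitals, and none of these overlaps a match of another of the 5 motifs searched, which also included TGANTCA (AP-1) and TTCNNNGAA (interferon gamma activated site). The Gbp5 window also holds an NF-kB match that begins 77 bases before the start and 2 matches of TTCNNNGAA, at 245 and 52 bases before it, all left in lower case, so its window is not one of interferon motifs alone. The other 5 windows hold no match of the other motifs. The NF-kB motif begins 71, 97 and 73 bases before the start in Cxcl1, Cxcl2 and Cxcl3, and 29 bases before it in Nfkbia. Among all 32851 windows of the table, 0.411% held the NF-kB motif, 3.44% the interferon response motif and 3.97% the C/EBP-ATF motif. Of 25 listed chemokine genes with a window, only these 3 Cxcl genes held the NF-kB motif. Of 24 acute phase genes with a window, 0 held it. In contrast, 10 of 11 interferon-induced GTPase genes held the interferon response motif, and 10 of 29 genes of the ATF4 list held the C/EBP-ATF motif. A match is a stretch of letters and not a measured binding site.

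Libraries of the series held 22990164 to 29946680 reads assigned to genes. Levels are given in CPM, the TMM-scaled read count relative to library size, and can be compared only within a gene, since they are not per length. Changes are log2 fold changes ± SE of cytokines over untreated from edgeR's quasi-likelihood test. Gene counts are of members tested. A gene "rose" or "fell" where its Benjamini-Hochberg adjusted p over all genes tested was under 0.05. One library stood apart. Untreated Het replicate 1 had a sample quality weight of 0.231, against 0.626 to 1.78 in the other Het libraries. It held 1031 CPM of summed stellate and mesenchymal markers, against 2614 and 2880 CPM in the other untreated Het libraries. The lowest such sums of untreated islets were 1498 CPM for KO and 1540 CPM for WT. Its duct cell markers summed to 1970 CPM, against 4338 and 5536 CPM. Here the other untreated Het libraries were the unusual ones. Duct sums of untreated islets lay between 1594 and 2207 CPM for KO, and between 2210 and 3280 CPM for WT. Larger changes of list counts without untreated Het replicate 1 are given both ways below, and smaller ones are not all given. When 1 Het library was left out, counts of 3 or fewer members moved by at most 3, and larger counts that moved by over 1.5 times are given with the library left out. The islet label fitted the markers: Ins2, 1 of the mouse insulin genes, stood at 94474, 105062 and 112207 CPM in cytokine-treated islets, against 125117, 113459 and 101035 CPM in untreated islets.

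Slc30a8 itself was read in every library as a check of the genotype label. Its levels were 32.1, 34.3 and 56.6 CPM in cytokine-treated islets, against 126, 95.7 and 111 CPM in untreated islets. All cytokine-treated libraries were below all untreated ones, and the gene fell (-1.43 ± 0.19) (edgeR adjusted p = 8.29e-05). Het minus WT islets gave -0.02 ± 0.19 with cytokines (adjusted p = 0.987) and -0.06 ± 0.19 untreated (adjusted p = 0.966). Intervals of 2 SE ran from -0.40 to 0.37 and from -0.44 to 0.32. KO libraries held 20.8, 23.2 and 20.003 CPM with cytokines and 47.9, 55.9 and 44.0 CPM untreated. The level of Slc30a8 mRNA thus did not separate Het from WT islets but was higher in each Het than in each KO library of the same treatment, and the labels do not name the deleted part of the gene.

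Cytokines changed 4305 genes in Het islets, 24.5% of those tested. Of these, 2240 rose (12.7% of genes tested) and 2065 fell (11.7%). Changes of at least 2-fold were called for 1165 genes (6.62%) and were about evenly split, with 557 genes higher (3.17%) and 608 lower (3.46%). The largest ones were not: 231 genes rose and 129 fell at least 4-fold, 110 rose and 24 fell at least 8-fold, and 64 rose and 3 fell at least 16-fold. At 32-fold or more there were 36 higher genes and 0 lower ones. The lowest of the 3 libraries of one treatment was above the highest of the other for 6166 genes, 35.1% of those tested. With only the 6 Het libraries in the fit, 2461 genes passed.

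The genes that rose most encode secreted defence proteins, chemokines and enzymes. Vnn3, a pantetheinase, stood at 31.6, 29.0 and 39.2 CPM in cytokine-treated islets, against 0.239, 0 and 0.208 CPM in untreated islets, with 0 reads in untreated replicate 2, and rose by 7.75 ± 0.41 (edgeR adjusted p = 7.87e-09). Csf3, granulocyte colony-stimulating factor (chromosome 11, 98701263 to 98703629, plus strand, GRCm38), stood at 92.2, 75.9 and 112 CPM in cytokine-treated islets, against 0.307, 0.489 and 0.693 CPM in untreated islets (7.54 ± 0.31, adjusted p = 6.63e-10). Nos2, the inducible nitric oxide synthase (chromosome 11, 78920787 to 78960254, plus strand), stood at 64.8, 55.7 and 77.7 CPM in cytokine-treated islets, against 0.341, 0.175 and 1.28 CPM in untreated islets (6.77 ± 0.55, adjusted p = 9.22e-07). In each of these genes the untreated libraries sat near the floor of detection and the groups were far apart. The size of the rise rests on those few untreated reads. At the other end, Eln, the gene of elastin, stood at 1.24, 2.81 and 1.97 CPM in cytokine-treated islets, against 7.34, 42.7 and 28.1 CPM in untreated islets (-3.69 ± 0.93, adjusted p = 0.0107). Wnt4, a secreted Wnt ligand, had nearly equal treated libraries, at 6.74, 7.11 and 7.22 CPM in cytokine-treated islets, against 75.1, 71.6 and 46.6 CPM in untreated islets (-3.20 ± 0.21, adjusted p = 8.68e-08). Necab2, a neuronal calcium-binding protein, fell (-2.93 ± 0.22), the palmitoyltransferase gene Zdhhc22 (-3.33 ± 0.40), and Cygb, cytoglobin of stellate cells, (-3.25 ± 0.58).

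**Figure D1:**
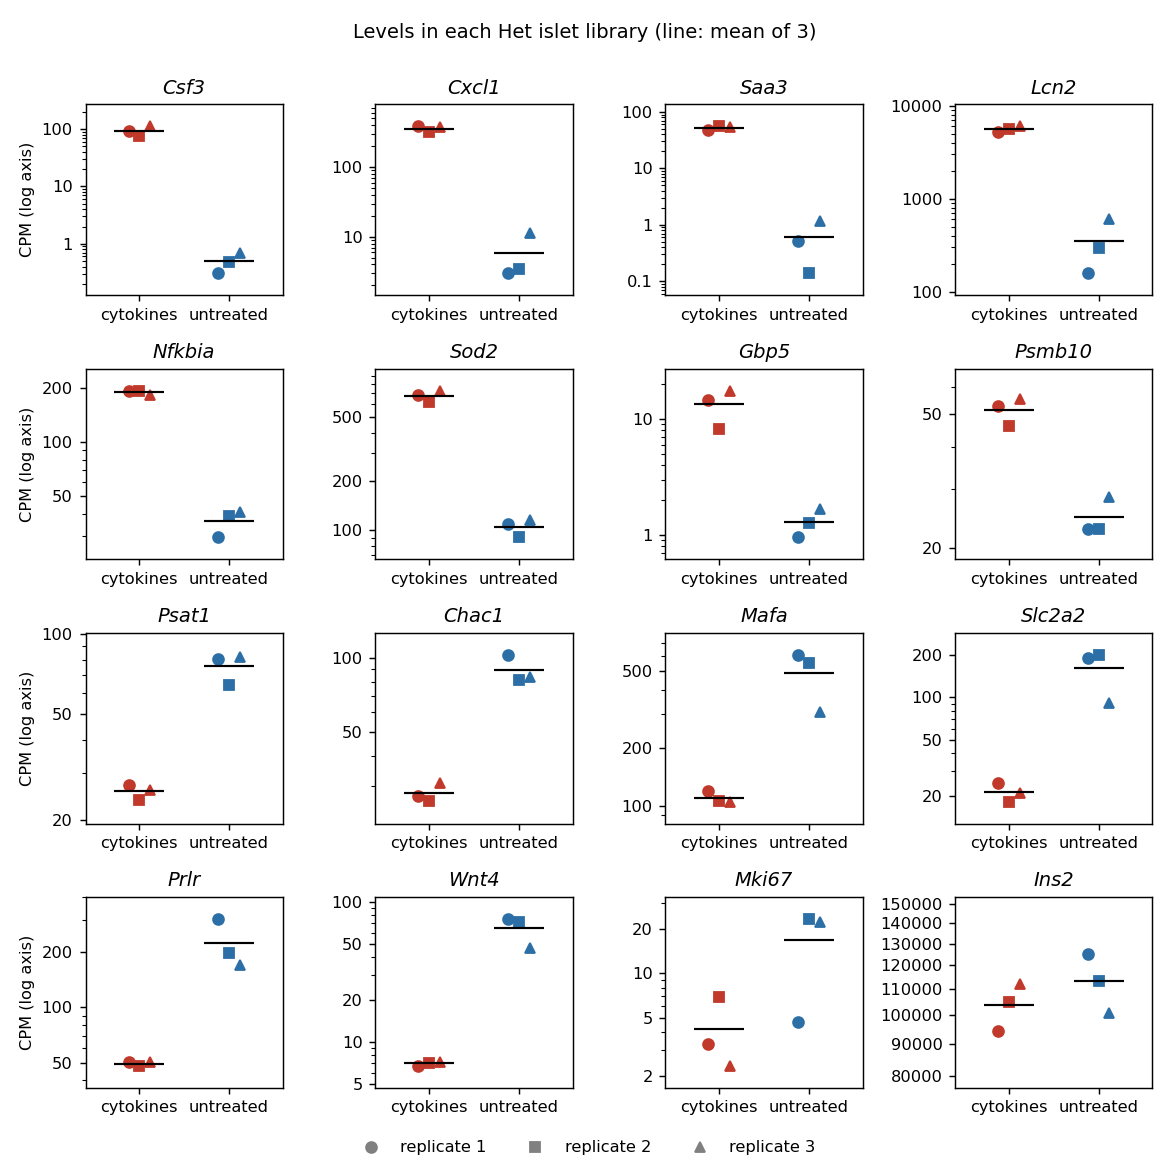
CPM on a log axis of 16 genes in each Het islet library, cytokine-treated at left in red and untreated at right in blue, with marker shapes for replicates 1 to 3 and a line at the mean of 3. The groups are apart for every gene shown except Mki67 and Ins2, whose groups overlap.

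Genes of smallest p among those that rose had moderate changes. Ralgds, a guanine nucleotide exchange factor for Ral GTPases, stood at 230.4, 226 and 245 CPM in cytokine-treated islets, against 68.5, 66.7 and 70.9 CPM in untreated islets (1.77 ± 0.06, edgeR adjusted p = 1.76e-11). The iron transporter gene Slc11a2 stood at 119, 119.6 and 125 CPM in cytokine-treated islets, against 42.1, 42.2 and 43.3 CPM in untreated islets (1.51 ± 0.05, adjusted p = 1.76e-11). Sod2, the mitochondrial superoxide dismutase and a classical NF-kB target, stood at 687, 616 and 727 CPM in cytokine-treated islets, against 109, 90.3 and 116 CPM in untreated islets (2.68 ± 0.09, adjusted p = 3.31e-11). Libraries within a treatment differed little for the first pair of genes, and in all 3 the treatments were clearly apart. Fmnl2 and St5 rose by 1.43 ± 0.05 and 1.43 ± 0.05, Abca3 by 1.04 ± 0.04, Pnrc1 by 2.05 ± 0.08, Grb2 by 1.23 ± 0.05, Anxa6 by 1.40 ± 0.06 and the keratin gene Krt87 by 3.80 ± 0.15. The lower genes of smallest p were led by enzymes of serine and one-carbon metabolism, which are described with the ATF4 list below.

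Receptors and adaptors for the added cytokines were already expressed, and part of them rose. Of 8 receptor genes tested, 3 rose and 0 fell, with a median of 0.66, against -0.03 over all genes tested. The signalling receptor gene Il1r1 stood at 503, 573 and 557 CPM in cytokine-treated islets, against 599.8, 576 and 503 CPM in untreated islets, and its groups overlapped (-0.04 ± 0.06, did not pass). Its partner Il1rap rose by 0.69 ± 0.10, the TNF receptor gene Tnfrsf1a by 0.62 ± 0.11 and the IFN-γ receptor chain gene Ifngr2 by 1.23 ± 0.10. Among 25 genes of TNF and IL-1 receptor adaptors and kinases, 12 rose and 0 fell (median 0.23). Birc3, the inhibitor-of-apoptosis protein cIAP2 that binds TRAF proteins, stood at 213, 199.7 and 229.8 CPM in cytokine-treated islets, against 20.1, 22.4 and 27.4 CPM in untreated islets (3.20 ± 0.18, edgeR adjusted p = 1.46e-08). Irak3, an inhibitory kinase of the IL-1 receptor pathway, rose by 2.60 ± 0.13, the IkB kinase relative gene Ikbke by 1.84 ± 0.10, Ripk2 by 1.51 ± 0.12 and the adaptor gene Myd88 by 0.73 ± 0.09. The kinase gene Map3k7 (TAK1), further down the same route, stood at 0.04 ± 0.04 and did not pass.

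Nearly all listed NF-kB genes rose. Of 19 genes tested from the list of subunits, inhibitors and related genes, 17 rose and 0 fell, with a median of 1.11. Nfkbia, the inhibitor IkBα, stood at 192, 194 and 183 CPM in cytokine-treated islets, against 29.6, 39.2 and 41.2 CPM in untreated islets (2.37 ± 0.15, edgeR adjusted p = 2.85e-08). The ribonuclease gene Zc3h12a, which degrades cytokine transcripts, stood at 204, 213 and 204 CPM in cytokine-treated islets, against 5.53, 10.7 and 14.0 CPM in untreated islets (4.36 ± 0.29, adjusted p = 1.64e-07). Treated libraries lay within a narrow band for both genes, and every one was above the untreated libraries. The IkB family genes Nfkbiz and Bcl3 rose by 2.05 ± 0.10 and 2.06 ± 0.15, and the A20-binding protein gene Tnip1 by 1.58 ± 0.08. The deubiquitinase genes Cyld and Otulin, at 0.15 ± 0.06 and -0.05 ± 0.07, did not pass. Cyld passed without cytokine-treated replicate 2 (0.20) or untreated replicate 1 (0.19). Of 20 Toll-like receptor and adaptor genes 4 rose and 1 fell, and the 25% called were near the 24.5% over all genes tested. Tlr2, a receptor for bacterial lipoproteins, rose by 1.83 ± 0.09, and Ly96, the TLR4 partner MD-2, by 0.83 ± 0.14.

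The JAK and STAT list was mixed. Of 33 JAK, STAT, IRF and SOCS genes, 12 rose and 4 fell (median 0.16), and the lower count was 2 without cytokine-treated replicate 1 or 3 or untreated replicate 2. The feedback inhibitor gene Socs3 stood at 189, 175 and 195 CPM in cytokine-treated islets, against 62.7, 62.6 and 90.1 CPM in untreated islets (1.37 ± 0.16, edgeR adjusted p = 1.33e-05), with the groups apart. Socs1, the main inhibitor of IFN-γ signalling, rose by 2.12 ± 0.34. The phosphatase genes Ptpn2 and Ptpn1, which dephosphorylate JAK and STAT proteins, rose by 1.06 ± 0.08 and 1.04 ± 0.06, and the transcription factor genes Irf1 and Stat3 by 0.84 ± 0.09 and 0.55 ± 0.05.

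Chemokine genes that attract neutrophils were among the largest rises. Of 29 chemokine genes tested, 10 rose and 1 fell, with a median of 1.29. Cxcl1 (chromosome 5, 90891241 to 90893115, plus strand) stood at 384, 318 and 372 CPM in cytokine-treated islets, against 3.00, 3.43 and 11.3 CPM in untreated islets (5.92 ± 0.46, edgeR adjusted p = 6.91e-07). Cxcl5, another ligand of the neutrophil receptor CXCR2, stood at 189, 132 and 121 CPM in cytokine-treated islets, against 0.375, 0.769 and 4.02 CPM in untreated islets (6.42 ± 0.70, adjusted p = 1.56e-05). Untreated replicate 3 was the highest untreated library for both and still far below the treated ones. Cxcl2 and Cxcl3 rose by 5.60 ± 0.45 and 5.42 ± 0.50. Cxcl1, Cxcl2 and Cxcl3 are similar in sequence, so reads could be split between them in counting. Ccl28, an epithelial chemokine, stood at 195, 236 and 151 CPM in cytokine-treated islets, against 16.3, 16.5 and 15.1 CPM in untreated islets (3.60 ± 0.27, adjusted p = 3.78e-07), and Ccl20 rose by 4.38 ± 0.44 at low levels. Cxcl9, an IFN-γ target that draws T cells, stood at 2.09, 0.948 and 1.93 CPM in cytokine-treated islets, against 0.0683, 0 and 0.104 CPM in untreated islets (4.74 ± 1.29, adjusted p = 0.015), a call lost without untreated replicate 2 (4.19). Its relative Cxcl10 stood at 4.57, 2.01 and 5.36 CPM in cytokine-treated islets, against 1.33, 2.34 and 1.66 CPM in untreated islets. Here the groups overlapped, and it did not pass (adjusted p = 0.156, edgeR). Cxcl16 and Cxcl12 stood at 0.84 ± 0.31 and -0.44 ± 0.46 and did not pass either.

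Of 31 genes of colony-stimulating factors and other cytokines 16 rose and 1 fell, with a median of 1.09. Without untreated replicate 1, 13 rose and 1 fell of 32 tested. Besides Csf3, the epithelial cytokine genes Il1f6 (IL-36α) and Il17c rose by 5.99 ± 0.39 and 5.74 ± 0.51. Il1f6 stood at 6.00, 6.93 and 7.65 CPM in cytokine-treated islets, against 0.137, 0 and 0.173 CPM in untreated islets. Tnf itself rose by 2.31 ± 0.30, at 3.91, 5.94 and 6.11 CPM in cytokine-treated islets, against 0.717, 1.33 and 1.18 CPM in untreated islets, and Tnfsf10, the death ligand TRAIL, by 1.42 ± 0.15. Every treated library was above every untreated one for these genes. Csf1, the macrophage growth factor, stood at 0.59 ± 0.31 and did not pass. The leukocyte adhesion list had 5 genes higher and 1 lower of 15. Icam1, the integrin ligand of leukocytes, rose by 2.38 ± 0.44, endothelial E-selectin, Sele, by 2.13 ± 0.47, and Alcam and F11r by 0.65 ± 0.07 and 0.93 ± 0.10, while Jam2 fell (-0.85 ± 0.18).

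Acute phase and innate defence genes had the highest median of the 45 lists. Of 28 tested, 25 rose and 0 fell, with a median of 4.96. Saa3, a serum amyloid A protein, stood at 47.9, 55.4 and 54.0 CPM in cytokine-treated islets, against 0.512, 0.140 and 1.18 CPM in untreated islets (6.41 ± 0.42, edgeR adjusted p = 1.18e-07). Orm1, the plasma protein orosomucoid, stood at 26.0, 31.4 and 36.5 CPM in cytokine-treated islets, against 0.102, 0.140 and 0.346 CPM in untreated islets (7.29 ± 0.35, adjusted p = 2.09e-09). Lcn2, the siderophore-binding lipocalin, stood at 5227, 5609 and 5999 CPM in cytokine-treated islets, against 159, 293 and 612 CPM in untreated islets (3.98 ± 0.42, adjusted p = 1.12e-05). Untreated replicate 3 was the highest and replicate 1 the lowest untreated library for Lcn2, and neither came near the treated ones. The chitinase-like gene Chil1 rose by 5.36 ± 0.24 and Orm2 by 5.65 ± 0.46. Saa2, which falls outside the rule for named genes, had 107 reads in cytokine-treated islets and 0 in untreated islets, at least 38.1-fold higher against a floor of 3 reads over the group. Saa1 and Saa2 are near-identical. Lbp and Cp, lipopolysaccharide-binding protein and ceruloplasmin, stood at 0.72 ± 0.47 and 0.98 ± 0.51 and did not pass.

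The calprotectin genes S100a8 and S100a9, known from neutrophils but also made by stressed epithelia, rose with this group. S100a8 stood at 98.4, 197 and 177 CPM in cytokine-treated islets, against 0.785, 1.19 and 3.43 CPM in untreated islets (6.45 ± 0.58, edgeR adjusted p = 2.75e-06), and S100a9 at 358, 564 and 512 CPM in cytokine-treated islets, against 4.74, 1.57 and 21.2 CPM in untreated islets (5.70 ± 0.81, adjusted p = 1.53e-04). The neutrophil marker list, which holds both, summed to 456.3 to 762.7 CPM in cytokine-treated islets and 3.53 to 25.4 CPM in untreated islets. S100a8 and S100a9 made up most of this sum in every library. Of the 11 genes in the list, 4 passed the low-count filter, and 3 of these rose and 0 fell. Below the filter, the granule and surface genes Ly6g, Elane and Retnlg had 0 reads in all 6 Het libraries. Mpo and Ngp had 1 and 1 read in cytokine-treated and 0 in untreated islets. The receptor genes Cxcr2 and Fpr1 had 1 and 10 reads in cytokine-treated islets, against 5 and 5 in untreated islets. Which cells these reads came from was not tested.

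**Figure D2:**
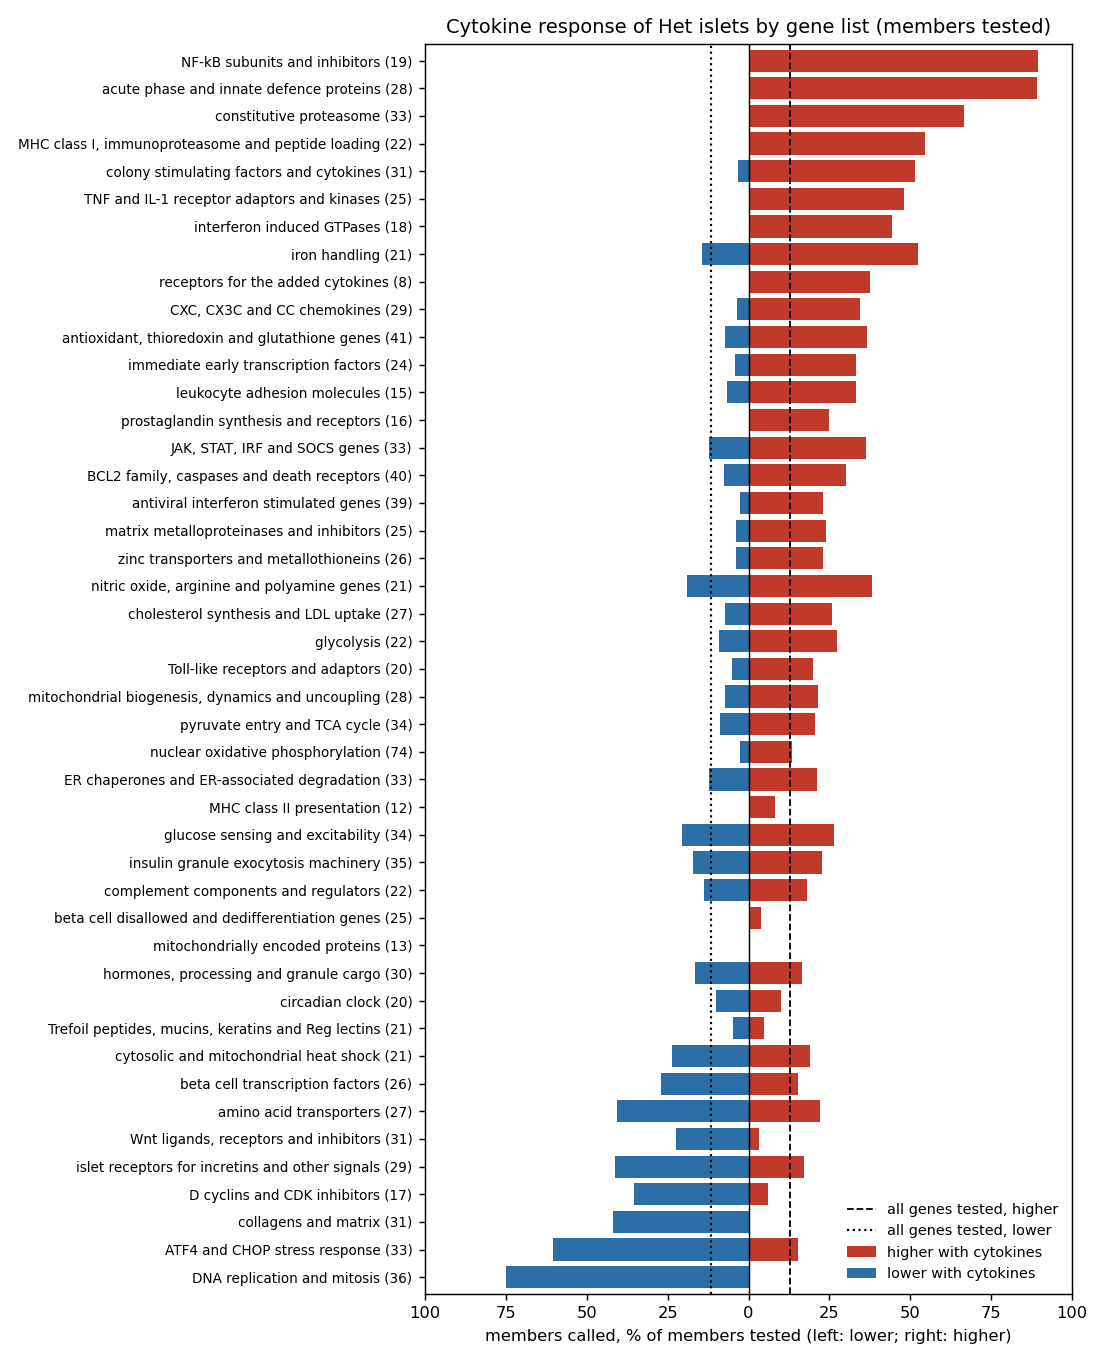
Share of tested members of 45 gene lists that rose (red, right) or fell (blue, left) with cytokines in Het islets, in percent, with the number tested in brackets and vertical lines at the shares over all genes tested, 12.7% higher and 11.7% lower. NF-kB and acute phase genes stand at one end, and DNA replication, ATF4 and matrix genes at the other.

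The iron handling list shares members with the defence list. Of 21 iron handling genes 11 rose and 3 fell (median 0.50). Steap4, a metalloreductase, stood at 339, 321 and 351 CPM in cytokine-treated islets, against 2.80, 1.85 and 6.13 CPM in untreated islets (6.55 ± 0.55, edgeR adjusted p = 1.46e-06). Hamp, the iron hormone hepcidin, known mainly from liver, stood at 56.1, 88.7 and 66.7 CPM in cytokine-treated islets, against 1.297, 1.43 and 1.63 CPM in untreated islets (5.60 ± 0.33, adjusted p = 3.2e-08). Both were near the floor in untreated islets and high in every treated library. The ferritin heavy chain gene Fth1 rose by 1.05 ± 0.10. The transferrin receptor gene Tfrc, at 0.24 ± 0.10, did not pass, but did without untreated replicate 3 (0.31). Of 22 complement genes 4 rose and 3 fell (median -0.23), 31.8% called, against 24.5% over all genes tested. Factor B, Cfb, rose by 3.60 ± 0.30, C1ra by 2.80 ± 0.29 and the C1 inhibitor gene Serping1 by 0.98 ± 0.16. The complement gene C8b fell (-1.01 ± 0.25).

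Interferon-induced GTPases rose in part, whereas most antiviral interferon genes did not pass. Of 18 GTPase genes 8 rose and 0 fell (median 1.43), and 12 rose without cytokine-treated replicate 2. Gbp6 stood at 9.18, 6.78 and 10.1 CPM in cytokine-treated islets, against 0.956, 1.43 and 1.25 CPM in untreated islets (2.84 ± 0.22, edgeR adjusted p = 1.3e-07). Gbp4, Gbp9 and Gbp8 rose by 3.32 ± 0.46, 1.69 ± 0.24 and 1.13 ± 0.14. Gbp5, chosen for its promoter, stood at 14.6, 8.09 and 17.4 CPM in cytokine-treated islets, against 0.956, 1.26 and 1.66 CPM in untreated islets (3.37 ± 0.61, adjusted p = 0.00101). Cytokine-treated replicate 2 was the lowest treated library for all 5 genes, and the groups stayed apart. Gbp genes lie in clusters of similar sequence, so reads may be shared between them. The GTPase genes Irgm1 and Irgm2, at 0.34 ± 0.13 and 0.52 ± 0.19, did not pass, and both passed without cytokine-treated replicate 2 (0.48 and 0.71). Of 39 antiviral interferon-stimulated genes 9 rose and 1 fell, with a median of 0.00. The 25.6% called were near the 24.5% over all genes tested. The exonuclease gene Isg20 rose by 0.88 ± 0.09, Ifitm2 by 1.29 ± 0.15, Samd9l by 0.82 ± 0.11, Dtx3l by 0.55 ± 0.08 and Parp14 by 0.85 ± 0.15.

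Part of the genes of class I antigen presentation rose, and in the class II presentation list only the costimulatory gene Cd40 did. Of 22 class I, immunoproteasome and peptide loading genes 12 rose and 0 fell (median 0.56). The immunoproteasome subunit gene Psmb10 stood at 52.7, 46.2 and 55.4 CPM in cytokine-treated islets, against 22.8, 22.8 and 28.4 CPM in untreated islets (1.06 ± 0.11, edgeR adjusted p = 3.45e-06). Tapbp, or tapasin, and its relative Tapbpl rose by 0.98 ± 0.10 and 0.83 ± 0.08, the peptide transporter gene Tap2 by 0.71 ± 0.09 and the proteasome activator gene Psme2 by 0.92 ± 0.09. The groups were apart for all of these. The heavy chain gene H2-D1 stood at 819.7, 698 and 827 CPM in cytokine-treated islets, against 622, 513 and 735 CPM in untreated islets and did not pass (0.33 ± 0.12, adjusted p = 0.0606), though it passed without cytokine-treated replicate 2 (0.40) or untreated replicate 3 (0.46). Of 12 genes of the class II presentation list 1 rose and 0 fell, 8.33% called, against 24.5% over all genes tested. The 1 that rose was the costimulatory receptor gene Cd40 (0.87 ± 0.10), and none of the tested MHC class II molecule genes passed. Cd274, the checkpoint ligand PD-L1, stood at 19.7, 18.1 and 22.1 CPM in cytokine-treated islets, against 20.6, 19.3 and 20.2 CPM in untreated islets, with overlapping groups, and did not pass. The constitutive proteasome moved little in size but widely: 22 of 33 subunit genes rose and 0 fell, with a median of 0.18. Psma6 and Psmd3 rose by 0.41 ± 0.05 and 0.37 ± 0.05.

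**Figure D3:**
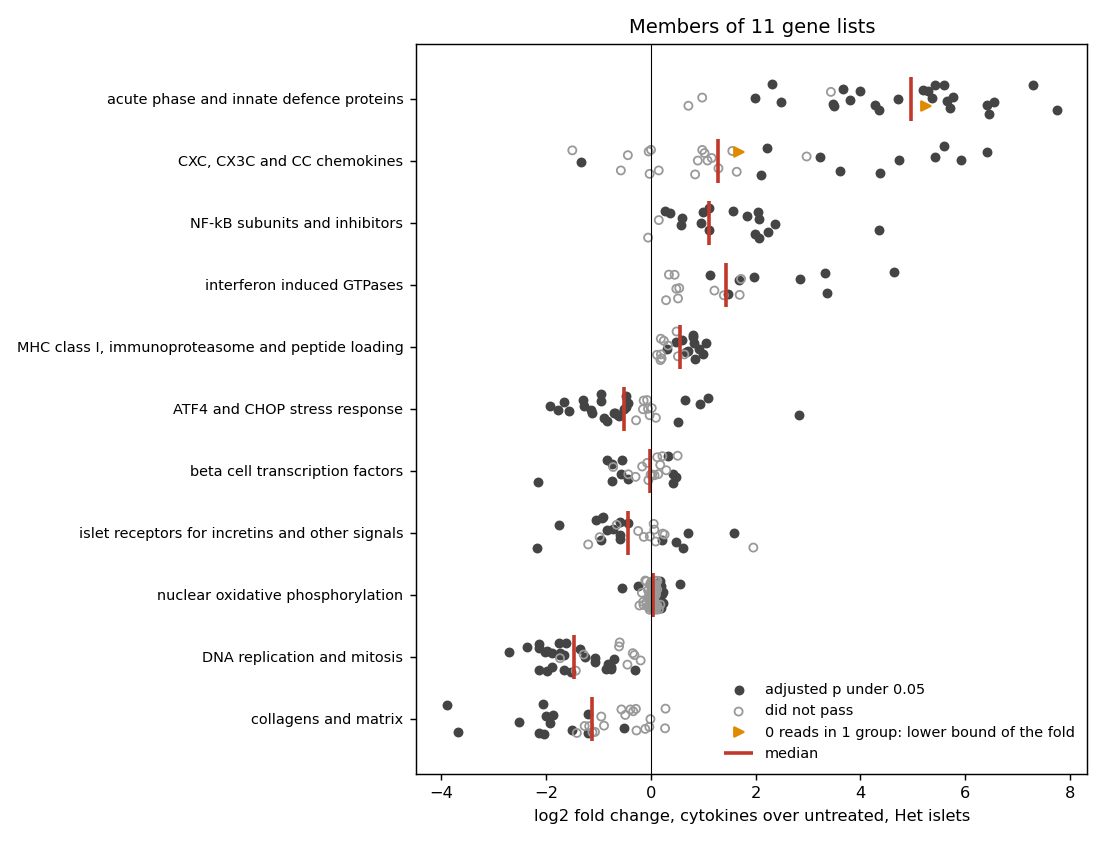
Log2 fold change, cytokines over untreated in Het islets, of each tested member of 11 gene lists, filled where the adjusted p was under 0.05, with a red line at the median of the list. Orange triangles mark Saa2 and Ccl24, which had 0 reads in untreated islets and stand at the lower bound of their fold. Acute phase genes reach beyond 7 on this scale, and genes of nuclear oxidative phosphorylation lie close to 0.

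Some listed enzymes of nitric oxide and prostaglandin synthesis rose, and the arginine transporter genes Slc7a1 and Slc7a2 fell. Of 21 genes of nitric oxide, arginine and polyamines 8 rose and 4 fell. Gch1, which makes the synthase cofactor tetrahydrobiopterin, rose by 0.68 ± 0.10, the arginase gene Arg2 by 2.23 ± 0.35 and the polyamine enzyme gene Odc1 by 1.13 ± 0.11. The arginine transporter gene Slc7a1 stood at 93.0, 79.7 and 85.0 CPM in cytokine-treated islets, against 150.0, 134 and 148 CPM in untreated islets and fell (-0.74 ± 0.06) (edgeR adjusted p = 2.43e-07), and Slc7a2 fell (-0.63 ± 0.13). Of 16 prostaglandin genes 4 rose and 0 fell, and the 25% called were near the 24.5% over all genes tested. The inducible cyclooxygenase gene Ptgs2 stood at 321, 363 and 235 CPM in cytokine-treated islets, against 38.8, 91.7 and 89.4 CPM in untreated islets (2.06 ± 0.40, adjusted p = 0.00175), with untreated replicate 1 lowest. Ptges, a prostaglandin E synthase gene, rose by 0.98 ± 0.21 and the D synthase gene Hpgds by 1.26 ± 0.12. Of 41 genes of the antioxidant list, which also holds oxidase genes, 15 rose and 3 fell. Besides Sod2, the oxidase genes Nox1 and Duox2, which make reactive oxygen, rose by 2.78 ± 0.54 and 2.56 ± 0.38, the cystine carrier gene Slc7a11 by 2.83 ± 0.33, peroxiredoxin Prdx1 by 0.92 ± 0.09, the glutathione reductase gene Gsr by 0.76 ± 0.05 and thioredoxin, Txn1, by 0.65 ± 0.06.

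Beta cell genes went either way. Mafa, Slc2a2 and Ucn3, which are named singly and were not tested as a group, all fell. Mafa, the transcription factor of mature beta cells, stood at 119.8, 107 and 105 CPM in cytokine-treated islets, against 609, 555 and 308 CPM in untreated islets (-2.15 ± 0.23, edgeR adjusted p = 9.51e-06). The glucose transporter gene Slc2a2 stood at 24.6, 18.1 and 20.8 CPM in cytokine-treated islets, against 192, 201 and 91.8 CPM in untreated islets (-2.93 ± 0.25, adjusted p = 1.18e-06), and Ucn3, a maturity peptide, at 18.7, 16.8 and 20.5 CPM in cytokine-treated islets, against 142, 165 and 78.3 CPM in untreated islets (-2.78 ± 0.27, adjusted p = 5.13e-06). Untreated replicate 3 was the lowest untreated library for all 3, and still far above the treated ones. Of 26 beta cell transcription factors 4 rose and 7 fell (median -0.03), and 6 rose and 6 fell without untreated replicate 1. Nkx6-1 fell (-0.85 ± 0.13), Pdx1 (-0.74 ± 0.15) and Foxo1 (-0.57 ± 0.08), whereas St18 and Glis3 rose by 0.47 ± 0.07 and 0.32 ± 0.05. Pax6 stood at 0.18 ± 0.08 and did not pass, but did without untreated replicate 1 (0.27).

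Ins1 and Ins2 stood at -0.16 ± 0.11 and -0.12 ± 0.12 (adjusted p = 0.312 and 0.499, edgeR), with overlapping groups. They are near-identical in part. Of 30 genes of hormones, their processing and granule cargo, 5 rose and 5 fell, and 9 rose and 4 fell without untreated replicate 1. With all libraries 33.3% of the list was called, against 24.5% over all genes tested. Chgb, the granule protein chromogranin B, stood at 13182, 16258 and 14023 CPM in cytokine-treated islets, against 7652, 6475 and 7411 CPM in untreated islets (1.01 ± 0.11, adjusted p = 3.4e-06). The processing enzyme gene Cpe rose by 0.45 ± 0.11. Ero1lb, an oxidase of proinsulin folding, fell (-1.13 ± 0.11), and Sytl4, a docking protein of granules, (-0.91 ± 0.15). Of 34 glucose sensing and excitability genes 9 rose and 7 fell, and 12 rose and 8 fell without untreated replicate 1. The calcium channel gene Cacna1c rose by 0.80 ± 0.08 and the glutamine synthetase gene Glul by 1.58 ± 0.11. The potassium channel gene Kcnk16 fell (-1.53 ± 0.17) and the calcium release channel gene Itpr1 (-0.76 ± 0.11). Of 35 exocytosis genes 8 rose and 6 fell, and 5 rose without untreated replicate 2. The SNARE gene Stx1a rose by 0.61 ± 0.07, and Cplx2 and Rab3a fell (-0.67 ± 0.11 and -0.71 ± 0.13).

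Receptors through which islets take outside signals fell more often than they rose, with 5 higher and 12 lower of 29 (median -0.44). Without untreated replicate 1 there were 5 higher and 10 lower of 31 tested (median -0.18). The prolactin receptor gene Prlr stood at 50.03, 48.0 and 50.1 CPM in cytokine-treated islets, against 304, 199 and 169 CPM in untreated islets (-2.18 ± 0.16, edgeR adjusted p = 2.41e-07). Treated libraries were almost equal and all below the untreated ones. The galanin receptor gene Galr1 and the VIP receptor gene Vipr1 fell (-0.95 ± 0.13 and -0.93 ± 0.11). In the other direction the adenosine receptor gene Adora1 stood at 68.2, 70.7 and 69.2 CPM in cytokine-treated islets, against 22.2, 22.4 and 24.9 CPM in untreated islets (1.58 ± 0.07, adjusted p = 4.84e-10), and the GABA receptor gene Gabbr2 rose by 0.70 ± 0.08. Of 25 genes that mature beta cells keep silent or regain on dedifferentiation, 1 rose, the pyruvate dehydrogenase kinase gene Pdk3 by 0.56 ± 0.06, and 0 fell. The 4% called compare with 24.5% over all genes tested.

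Several genes of the other endocrine cells were lower. Gcg, glucagon, stood at 8610.5, 8892 and 9674 CPM in cytokine-treated islets, against 18337, 12269 and 14149 CPM in untreated islets (-0.72 ± 0.19, edgeR adjusted p = 0.011), and the call was lost without untreated replicate 1 (-0.54), the highest library. Ttr, transthyretin of alpha cells, fell (-1.51 ± 0.23) and Peg10 (-1.61 ± 0.15). Of 12 alpha cell markers 6 fell and 0 rose. Their sum was 9032 to 10120 CPM in cytokine-treated islets and 12990 to 19220 CPM in untreated islets, with no overlap. Gcg made up most of this sum in every library, so the sum largely repeats the result for Gcg. Pyy, peptide YY, fell (-0.78 ± 0.18). Somatostatin, Sst, stood at 4071, 4457 and 4589.7 CPM in cytokine-treated islets, against 6927, 5076 and 5308 CPM in untreated islets. The groups were apart, but it did not pass (-0.40 ± 0.16, adjusted p = 0.0922). Ppy, at -0.07 ± 0.73, varied widely between untreated libraries and did not pass.

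Genes of the ATF4 and CHOP stress response mostly fell. Of 33 tested 20 fell and 5 rose, with a median of -0.51, and fits that each left out 1 Het library had 20 to 21 lower and 5 higher. Psat1, an enzyme of serine synthesis, stood at 27.0, 23.8 and 25.9 CPM in cytokine-treated islets, against 80.4, 64.3 and 82.0 CPM in untreated islets (-1.56 ± 0.08, edgeR adjusted p = 2.17e-09). Phgdh, the first enzyme of that pathway, stood at 22.7, 18.2 and 17.9 CPM in cytokine-treated islets, against 74.0, 60.8 and 67.2 CPM in untreated islets (-1.78 ± 0.11, adjusted p = 8.05e-09). The mitochondrial one-carbon enzyme gene Shmt2 stood at 50.7, 53.1 and 52.5 CPM in cytokine-treated islets, against 119, 108 and 115 CPM in untreated islets (-1.13 ± 0.05, adjusted p = 6.63e-10), the smallest p of all genes that fell. For each of the 3 the treated libraries lay within a few CPM of one another and well below the untreated ones. Psph and Mthfd2, the other enzymes of this route, fell (-1.49 ± 0.10 and -1.28 ± 0.09). Chac1, a glutathione-degrading enzyme gene and ATF4 target shown above for its promoter, stood at 27.4, 26.1 and 31.1 CPM in cytokine-treated islets, against 103, 81.2 and 83.3 CPM in untreated islets (-1.66 ± 0.13, adjusted p = 1.57e-07). Ddit3, which encodes CHOP, fell (-0.95 ± 0.15). The members that rose included Slc7a11 and the thioredoxin inhibitor gene Txnip, at 0.94 ± 0.05.

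The related lists did not move as 1 block. Of 33 genes of ER chaperones and ER-associated degradation 7 rose and 4 fell, 33.3% called, against 24.5% over all genes tested. The counts were 11 and 3 without untreated replicate 1, and 7 fell without untreated replicate 3. Xbp1, a transcription factor of the unfolded protein response, stood at 481, 525 and 529.9 CPM in cytokine-treated islets, against 323, 289 and 317 CPM in untreated islets (0.72 ± 0.06, edgeR adjusted p = 2.69e-07), and Edem1, a gene of ER-associated degradation, rose by 0.77 ± 0.05, while Ern1, the nuclease that splices Xbp1, fell (-0.56 ± 0.08). Of 27 amino acid transporters 6 rose and 11 fell. Slc6a14, a broad amino acid transporter, stood at 31.8, 36.6 and 43.6 CPM in cytokine-treated islets, against 0.307, 0.210 and 0.623 CPM in untreated islets (6.60 ± 0.31, adjusted p = 1.35e-09), and Slc1a4 fell (-0.86 ± 0.07). Of 40 BCL2 family, caspase and death receptor genes 12 rose and 3 fell. Gsdmd, the pore former of pyroptosis, rose by 0.82 ± 0.14, Bmf, a BH3-only death gene, by 1.18 ± 0.18 and the survival gene Bcl2l1 by 0.47 ± 0.07. The BH3-only gene Bbc3 (PUMA) fell (-1.40 ± 0.15). Of 21 heat shock genes 4 rose and 5 fell, and 2 rose without cytokine-treated replicate 1. Hspa9 and Lonp1 of mitochondria fell (-0.60 ± 0.07 and -0.49 ± 0.08), and the co-chaperone gene Bag3 rose by 0.67 ± 0.09.

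The lists of energy metabolism were called at shares both below and above the 24.5% over all genes tested. Of 74 nuclear genes of oxidative phosphorylation 10 rose and 2 fell, with a median of 0.05, and 5 or 6 rose without cytokine-treated replicate 1 or 2 or untreated replicate 2. In all 16.2% of the list passed, against 24.5% over all genes tested. Cox5a, a subunit of complex IV, stood at 97.4, 107 and 97.9 CPM in cytokine-treated islets, against 65.4, 64.9 and 74.4 CPM in untreated islets (0.56 ± 0.07, edgeR adjusted p = 1.05e-05), with the groups apart. Of 13 mitochondrially encoded genes 0 passed by edgeR, DESeq2 or limma, 1 had an unadjusted p under 0.05 by edgeR, and mt-Co1 stood at 0.10 ± 0.11. Of 34 genes of pyruvate entry and the TCA cycle 7 rose and 3 fell, 29.4% called, against 24.5% over all genes tested. Pdk4, a kinase that closes pyruvate dehydrogenase, fell (-1.92 ± 0.19), and Acod1, which makes itaconate from aconitate in inflamed macrophages, rose by 3.43 ± 0.33. Of 22 glycolysis genes 6 rose and 2 fell (36.4% called), and 13 rose without untreated replicate 3. Aldoa and Pkm rose by 0.39 ± 0.09 and 0.47 ± 0.09. Of 28 genes of mitochondrial biogenesis, dynamics and uncoupling 6 rose and 2 fell, 28.6% called, against 24.5% over all genes tested. Mfn2, of mitochondrial fusion, rose by 0.45 ± 0.05, and the transcription factor gene Nrf1 fell (-0.45 ± 0.05). Of 27 cholesterol genes 7 rose and 2 fell (33.3% called), among them the mevalonate enzyme gene Mvd, which rose by 0.85 ± 0.12.

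Of the listed zinc genes only Slc30a8 fell. Of 26 zinc transporters and metallothioneins tested 6 rose and 1 fell, 26.9% called, against 24.5% over all genes tested. The lower count was 2 without cytokine-treated replicate 1 or untreated replicate 2. The plasma membrane exporter gene Slc30a1 stood at 33.6, 35.9 and 35.4 CPM in cytokine-treated islets, against 25.5, 25.6 and 25.9 CPM in untreated islets (0.45 ± 0.05, edgeR adjusted p = 4.62e-06), and the Golgi transporter gene Slc30a7 and the importer gene Slc39a6 rose by 0.37 ± 0.06 and 0.46 ± 0.07. The metallothionein gene Mt2 stood at 491, 340.5 and 372 CPM in cytokine-treated islets, against 206, 194 and 237 CPM in untreated islets (0.92 ± 0.15, adjusted p = 3.76e-04). Mt1 rose by 0.60 ± 0.17, a call lost without cytokine-treated replicate 1 (0.39) or untreated replicate 2 (0.54). Cytokine-treated replicate 1 was the highest library for both metallothioneins.

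Most listed proliferation genes fell, and this result rests on few libraries. Of 36 genes of DNA replication and mitosis 27 fell and 0 rose (median -1.48). The count was 7 to 13 without cytokine-treated replicate 1 or 3 or untreated replicate 2 or 3, and 35 without untreated replicate 1. Mki67, chosen for the plot of levels, stood at 3.33, 6.93 and 2.36 CPM in cytokine-treated islets, against 4.64, 23.4 and 22.2 CPM in untreated islets (-1.99 ± 0.53, edgeR adjusted p = 0.0148). The call was lost without cytokine-treated replicate 1 (-1.85) or 3 (-1.70) or untreated replicate 2 (-1.67). Untreated replicate 1 was below cytokine-treated replicate 2, so the groups overlapped, as they did for 31 of the 36 genes. The groups were apart for only 5 of the 36, against 35.1% of all genes tested. The summed stellate and mesenchymal markers followed the same libraries, at 523.1, 1164 and 576.7 CPM in cytokine-treated islets, against 1031, 2614 and 2880 CPM in untreated islets. As for Mki67, the highest treated library was replicate 2 and the lowest untreated one replicate 1. Their part in the proliferation result was not tested. The replication gene Mcm2 fell (-0.75 ± 0.15) and its activator gene E2f1 (-0.86 ± 0.17), and Mcm4, at -0.35 ± 0.16, did not pass, but did without untreated replicate 1 (-0.52). Of 17 D cyclins and inhibitors of cyclin-dependent kinases 6 fell and 1 rose. Ccnd1 and Ccnd2 fell (-0.86 ± 0.15 and -0.60 ± 0.11), the inhibitor gene Cdkn1a fell (-0.44 ± 0.07), and Cdkn2b (p15) rose by 1.17 ± 0.12.

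Some Wnt and matrix genes fell as well. Of 31 Wnt genes 7 fell and 1 rose, 25.8% called and so near the share over all genes tested, and 4 fell without untreated replicate 3. Besides Wnt4, the inhibitor genes Sfrp5 and Sfrp1 fell (-2.93 ± 0.31 and -0.86 ± 0.14) and the receptor gene Ror2 (-0.54 ± 0.06), while Ror1 rose by 0.45 ± 0.11. Of 31 collagens and matrix genes 13 fell and 0 rose (median -1.12), 6 without cytokine-treated replicate 1 or 3 or untreated replicate 2 or 3, and 18 without untreated replicate 1. Col14a1, a fibril-associated collagen, stood at 8.05, 13.5 and 10.6 CPM in cytokine-treated islets, against 22.1, 23.9 and 28.2 CPM in untreated islets (-1.21 ± 0.18, edgeR adjusted p = 1.76e-04). Replicate 2 was the highest treated library, untreated replicate 1 was the lowest untreated one, and the groups did not overlap. Mgp, matrix Gla protein, fell (-2.52 ± 0.28) and Col10a1, a collagen known from cartilage, (-3.90 ± 0.50). The stellate and mesenchymal marker list, which shares collagen genes with the matrix list, moved with this result: 10 of 16 markers fell and 0 rose, and 5 or 6 fell without cytokine-treated replicate 1 or 3 or untreated replicate 2 or 3. Its sum was 523.1 to 1164 CPM in cytokine-treated islets and 1031 to 2880 CPM in untreated islets. Its part in the result was not tested. Of 25 genes of matrix metalloproteinases and their inhibitors 6 rose and 1 fell (median 0.17), 28% called, against 24.5% over all genes tested. Only 2 rose without cytokine-treated replicate 2, and without untreated replicate 1 there were 2 higher and 3 lower, with a median of -0.12. Mmp3, stromelysin, stood at 128, 233 and 79.3 CPM in cytokine-treated islets, against 1.54, 3.64 and 5.02 CPM in untreated islets (5.43 ± 0.79, adjusted p = 1.99e-04), and Mmp10 rose by 4.47 ± 0.64.

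Of 24 immediate early genes 8 rose and 1 fell, among them Ier3 at 1.19 ± 0.19 and Junb at 0.99 ± 0.16. Of 20 clock genes 2 rose and 2 fell, 20% called, against 24.5% over all genes tested. Npas2 stood at 73.3, 78.1 and 77.5 CPM in cytokine-treated islets, against 20.6, 17.1 and 20.6 CPM in untreated islets (1.97 ± 0.12, edgeR adjusted p = 8.24e-09), with the groups far apart, and Ciart fell (-1.29 ± 0.19). Of 21 trefoil, mucin, keratin and Reg genes 1 rose and 1 fell (9.52% called), the membrane mucin genes Muc13 at 2.54 ± 0.30 and Muc4 at -0.50 ± 0.08.

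Markers of most other cell types overlapped between treatments. Beta cell markers summed to 154600 to 183300 CPM in cytokine-treated islets and 164100 to 201800 CPM in untreated islets, and 7 of 12 fell and 0 rose (3 rose without untreated replicate 1). Delta cell markers summed to 4250 to 4771 CPM in cytokine-treated islets and 5281 to 7192 CPM in untreated islets. Of 28 tested acinar, 12 duct and 15 endothelial markers 0 passed by edgeR or DESeq2, where limma called 0, 2 and 1 lower, and an unadjusted p under 0.05 by edgeR was seen for 0, 0 and 1. Of 17 macrophage markers 1 fell, the fractalkine receptor gene Cx3cr1 (-1.77 ± 0.42). Duct markers summed to 3942 to 5152 CPM in cytokine-treated islets and 1970 to 5536 CPM in untreated islets, and macrophage markers to 330.1 to 429.5 CPM in cytokine-treated islets and 156.5 to 345.1 CPM in untreated islets. Of 6 delta, 4 PP and 9 Schwann cell and neuron markers 1 each fell, and of 3 tested markers of lymph node stroma and adipocytes 0 passed by edgeR, DESeq2 or limma, and 0 had an unadjusted p under 0.05. The differences between treatments were -6153 CPM for alpha, -1448 CPM for delta and -725.3 CPM for PP cell markers, each with p = 0.10 by a two-sided exact permutation test, the smallest that 3 libraries against 3 allow. These sums were mostly Gcg for alpha, Sst for delta and Pyy with Ppy for PP cells, and so say little about the other markers. The differences were 624.1 CPM for neutrophil and 8.15 CPM for lymph node stroma and adipocyte markers, each also without overlap (exact permutation p = 0.10). S100a8 and S100a9 made up most of the neutrophil sum in every library, so that sum largely repeats their result. Prox1 made up most of the lymph node stroma and adipocyte sum, its own groups overlapped, and it did not pass (0.10 ± 0.07). Adipoq, Plin1, Cfd and Ccl21a of that list had at most 1 read per treatment, so the sum says little about these cells. T, B and NK cell markers summed to 1.28 to 2.81 CPM in cytokine-treated islets and 1.98 to 3.35 CPM in untreated islets, and 6 of those 17 genes had 0 reads in all Het libraries.

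**Figure D4:**
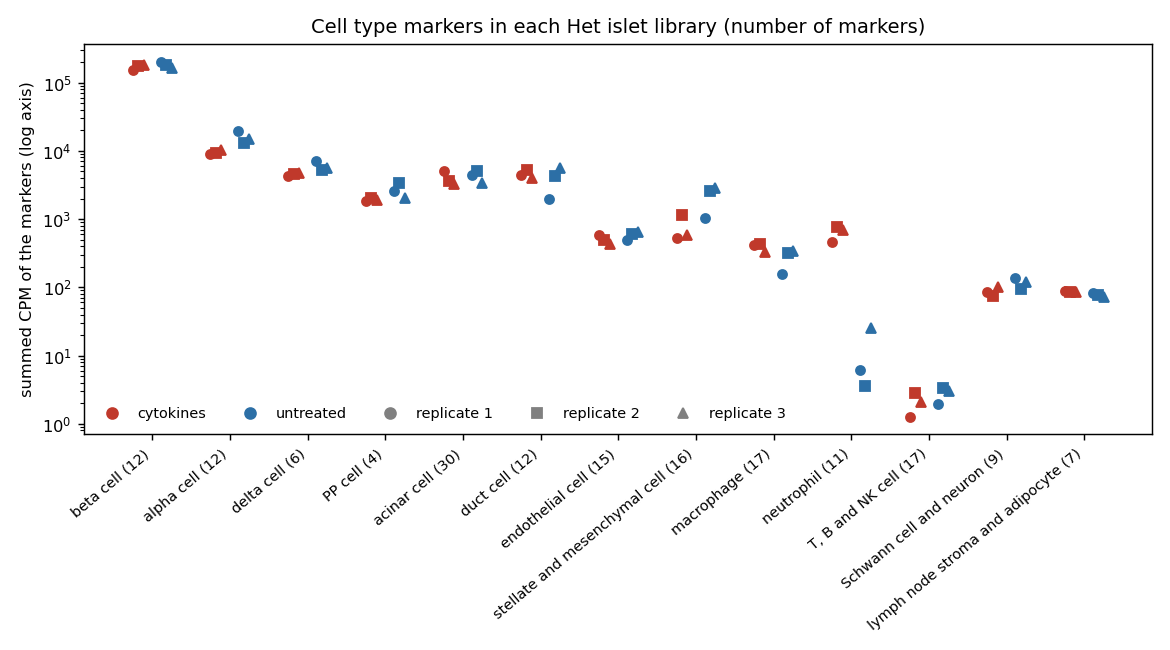
Summed CPM, on a log axis, of the markers of 13 cell types in each Het islet library, cytokine-treated in red and untreated in blue, with shapes for replicates 1 to 3 and the number of markers in brackets. Neutrophil, alpha, delta, PP cell and lymph node stroma and adipocyte markers do not overlap between treatments. Among the untreated Het libraries, replicate 1 is the lowest in duct, stellate and macrophage markers.

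The Het response was last set against the responses of WT and KO islets, which share no library with it. Across the 17590 genes, log2 changes in Het correlated with those in WT islets at Pearson's r = 0.79 and Spearman's rho = 0.66 and with those in KO islets at 0.82 and 0.74, where genes are not independent replicates. Of the 4305 genes called in Het islets 3050 were called in the same direction in WT islets, which is 70.8% of the Het calls and 67.6% of the 4515 WT calls (25.7% of genes tested). The same count was 3459 for KO islets, 80.3% of the Het calls and 62.8% of the 5504 KO calls (31.3%). A call in one genotype and not in another is no test of a difference, so the difference in response was tested directly.

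By edgeR 0 genes passed for Het minus WT or for Het minus KO, with smallest adjusted p of 0.881 and 0.792. Unadjusted p under 0.05 was seen for 842 genes (4.79%) and 1008 genes (5.73%). DESeq2 called 0 and 1, and limma 0 and 0. The smallest p for Het minus WT belonged to Ogdhl, a relative of a TCA cycle enzyme, whose cytokine response was -0.45 ± 0.09 in Het, against -1.01 ± 0.09 in WT islets, followed by Pdk3 (0.56 ± 0.06 in Het, 0.18 ± 0.06 in WT) and the autophagy receptor gene Optn (0.76 ± 0.04 in Het, 0.50 ± 0.04 in WT). For Het minus KO they were the nucleotide kinase gene Cmpk1 (-0.15 ± 0.05 in Het, 0.24 ± 0.05 in KO), Rreb1 (0.03 ± 0.05 in Het, -0.34 ± 0.06 in KO) and Gmfb (-0.13 ± 0.06 in Het, 0.29 ± 0.06 in KO). Without untreated Het replicate 1, edgeR called 4 genes for Het minus KO: F11r (-0.56 ± 0.07, adjusted p = 0.00483), Itga6 (-0.54 ± 0.07, 0.00483), Clic1 (-0.55 ± 0.08, 0.0372) and St6gal1 (-0.49 ± 0.08, 0.0372). The response of these 4 was lower in Het than in KO islets in that fit, and 0 genes passed for Het minus WT. Clic1, Itga6 and St6gal1 are named for this result alone.

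**Figure D5:**
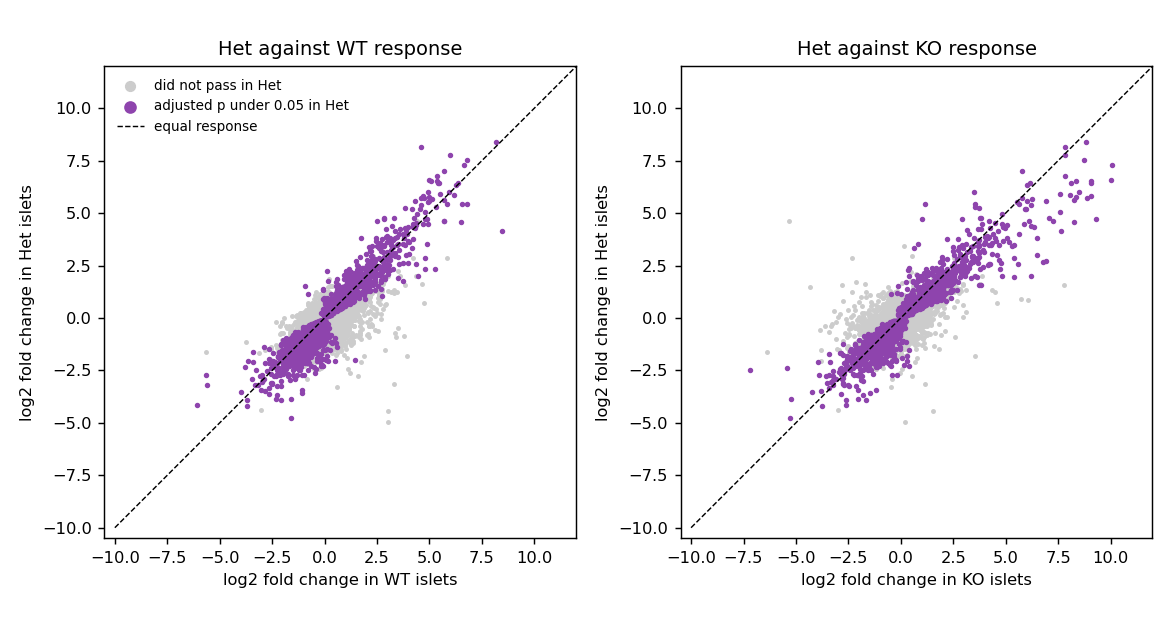
Log2 fold change with cytokines of each of 17590 genes in Het islets (vertical axis) against WT (left panel) or KO islets (right panel), purple where the adjusted p in Het islets was under 0.05, with a dashed line at equal response. Genes with few reads in 1 group reach large values that depend on the prior count, and the called genes lie along the line in both panels.

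For 3 gene groups the member counts are set beside those of the other genotypes, as a description and not a test. NF-kB genes rose for 17 of 19 in Het, 17 in WT and 18 in KO islets, acute phase genes for 25 of 28 in Het, 27 in WT and 25 in KO islets, and ATF4 genes fell for 20 of 33 in Het, 20 in WT and 21 in KO islets. The counts were further apart for DNA replication and mitosis, where 27 of 36 genes fell in Het, 3 in WT and 20 in KO islets, with medians of -1.48, -0.76 and -1.26, and for collagens and matrix, where 13 of 31 fell in Het, 4 in WT and 4 in KO islets. No gene of either list passed edgeR's test of the difference in response, as 0 of all genes did.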

How the data were processed

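RNA of whole islets was sequenced in 18 libraries, 3 in each of 6 groups. The deposited table holds the authors' raw read counts per gene. FastQC 0.11.7, cutadapt 1.16, STAR 2.5.2a, featureCounts 1.6.2, DESeq2 1.30.0 and GRCm38 are named per the submitters' processing notes. No source used here gives the strandedness. Overlapping and antisense genes may therefore share reads.

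Genes passing edgeR 4.0.16 filterByExpr (count minimum 10) were TMM-scaled and fitted by the robust quasi-likelihood test with 1 mean per group over all 18 libraries (12 residual degrees of freedom), which assumes that groups vary alike. Tests were adjusted by Benjamini-Hochberg over all genes tested at a threshold of 0.05. Alternatives used DESeq2 1.42.0, limma 3.58.1 voom with quality weights, other filters, scalings and samples, in R 4.3.3. Coordinates follow GENCODE M21 (GRCm38).

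The 45 process lists, the 13 cell type lists and the rules were chosen with earlier results of these data known. Named genes were the 15 largest changes each way among called genes averaging at least 2 CPM without overlap, the 10 of smallest p and the 5 of highest level each way, per list up to 5 called members of smallest p and 2 others of highest level, the 3 of smallest p per difference between genotypes, and a fixed set of islet and cytokine genes. Gbp5, Chac1, Mki67, Saa1, Saa2, Ccl24, Cxcl9, Socs1, Nox1, Duox2, Clic1, Itga6 and St6gal1 fall outside that rule and were chosen after their values were seen. The 77 list members below the filter or absent were not tested. Some named genes are not reported here.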

Additional observations from a re-analysis of the deposited data

How the results depend on the processing

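The count of called genes was 3653 to 5392 under other scalings, filters and tools and with the replicate block. It was 3328 to 4092 in fits that each left out 1 Het library (1819 to 2215 higher and 1504 to 2012 lower), where 74.2% to 83.1% of the 4305 calls were still called and 0 reversed in sign. At least 2-fold there were 982 to 1197. With only the 6 Het libraries there were 2461 calls, 1441 higher and 1020 lower, and with the replicate block added to that fit 1790, 1072 higher and 718 lower. These fits have fewer libraries to estimate the spread.

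The deviations of samples with the same replicate number had correlations of 0.13, 0.38 and -0.22. Not every one was over 0.1, and the main fit did not pair the samples. With 3 libraries per group these values cannot decide whether the samples pair. The count columns of Het islets carry the same numbers, with a gap, in both treatments. With the replicate block on all libraries 4346 genes passed, 2218 higher and 2128 lower. For the difference Het minus KO, DESeq2 called 1 gene, and edgeR called 4 without untreated replicate 1 and 0 to 4 over all fits that left out a Het library. For Het minus WT every such fit called 0.

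Marker differences between treatments changed sign for acinar cells (-338.1 CPM), to 25.96 CPM without cytokine-treated replicate 3 and 54.48 CPM without untreated replicate 2. They did so for duct cells (536.6 CPM), to -452.3 CPM without untreated replicate 1. The untreated Het libraries kept in that fit had higher duct sums (4338 and 5536 CPM) than any untreated WT or KO library. Without each library in turn the marker differences ranged from -7486 to -4371 CPM for alpha, -21190 to -2364 CPM for beta, -1808 to -852.3 CPM for delta and -1021 to -377.5 CPM for PP cells. The ranges were -862.9 to 54.48 CPM for acinar, -452.3 to 1330 CPM for duct, -1992 to -1068 CPM for stellate, 57.93 to 152.2 CPM for macrophage, 560.7 to 713.9 CPM for neutrophil and -123.4 to -41.48 CPM for endothelial markers. T, B and NK cell markers ranged from -1.17 to -0.366 CPM, Schwann cell markers from -41.35 to -19.81 CPM and lymph node and adipocyte markers from 5.23 to 10.96 CPM.

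Among named genes, changes of sign were seen for genes that did not pass in either fit. Cd274, at 0.00 to 2 decimals, was 0.01 with RLE size factors, no low-count filter or DESeq2, 0.04 by limma, 0.00 with the 6 Het libraries and -0.08 to 0.06 in fits that each left out 1 Het library. In such fits Il1r1 ranged from -0.11 to 0.01. Ppy was 0.06 with the replicate block and -0.32 to 0.43 in such fits. Rreb1 was -0.01 by limma and 0.00 to 0.08 in such fits. The cause of these changes was not tested.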

Other observations

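By gene class, 26.9% of 14751 protein coding genes tested were called in Het islets, 2087 higher and 1875 lower. Long non-coding RNAs leaned the other way, with 99 higher and 153 lower of 1498 (16.8% called). Of 997 pseudogenes 38 were higher and 24 lower (6.22%).

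The table holds 191 promoter windows of genes that were called and at least 4-fold higher with cytokines, where a gene can have several windows. The NF-kB motif was found in 8 of these windows (4.19%), against 0.411% of all windows. The AP-1 motif TGANTCA was found in 17.8%, against 7.81% of all windows, and TTCNNNGAA in 14.7%, against 8.30%. Among the windows of all called genes that were higher the shares were 0.641%, 7.09% and 8.05%. These shares are a description of the letters in the windows and were not tested.

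Summed acinar markers differed between the genotypes, and whether acinar cell number or RNA per cell differed was not tested. Acinar markers summed to 3240 to 5018 CPM in cytokine-treated and 3362 to 5091 CPM in untreated Het islets. In WT islets they summed to 6503 to 12380 CPM with cytokines and 9620 to 9716 CPM untreated. The sums in KO islets were 931.1 to 2095 CPM with cytokines and 1867 to 2903 CPM untreated.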
